A study of Mus musculus with 16 samples.

Results

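The genes described here are 7 genes by which the bone-resorbing osteoclast is commonly recognised, namely 3 effector enzymes (Acp5, Ctsk and Mmp9), 2 receptors (Calcr and Oscar) and 2 genes of cell fusion (Dcstamp and Ocstamp). They were chosen by symbol, and all 7 are present among the 36829 features listed for each mouse. Of these features, 3887 carry the single symbol Rnf135. Whether genes called not listed below are among them was not tested. RNA was taken from marrow-flushed cortical bone of the femur of 11-week-old female C57Bl/6J mice. Of these mice, 8 had their hindlimbs unloaded for 7 days (HLU) and 8 bore weight normally (Control). In HLU an animal is suspended by its tail, which takes the body weight off its hind limbs, and the comparison asks which transcripts of bone change in abundance when its load is removed. Each mouse gave its own RNAseq library, so the p-values measure the spread between animals.

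Osteoclasts arise from precursors of the monocyte and macrophage lineage under the cytokines M-CSF and RANKL, and they become large cells with many nuclei when these precursors fuse. The mature cell seals off a patch of bone, acidifies it to dissolve the mineral and secretes proteases that cut the collagen beneath. The transcription factor NFATc1, acting with partners such as AP-1, PU.1 and MITF, turns on the genes of fusion and of resorption. In RNA from a whole piece of bone, fewer osteoclasts and less RNA per osteoclast cannot be told apart.

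The values are RPKM, in which reads on a gene are scaled to the gene's length and to the size of the library. The reads by which each library had been divided could be recovered from the steps of the values and ranged from 7067512 to 21363584 over the 16 mice, and the smallest libraries were those of Control 2 and HLU 5. In the recovered reads, the 7 genes fell into well and thinly covered ones. Between 4448 and 38512 reads per mouse lay on Ctsk, between 115 and 469 on Oscar, between 10 and 118 on Ocstamp and between 14 and 132 on Calcr. The cells that make up bone were present by their markers, since 12 of 12 osteoblast and 10 of 10 osteocyte genes passed a mean of 0.5 RPKM, with Sparc (976 RPKM) and Mepe (183 RPKM) the most abundant of each list.

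The ratio of Ctsk to Oscar differed between the groups, though its exact permutation p adjusted over all features was 0.512. It was picked after all 21 ratios between the 7 genes had been seen. The 2 genes also covaried closely between mice, and for these reasons their promoters are printed. They were taken from RefSeq on build GRCm38.p6 and hold 250 bases before and 50 bases after the start of the gene, at chr3:95498960-95499259 on the + strand for Ctsk and chr7:3616108-3616407 on the - strand for Oscar, written 5′ to 3′ along the gene.
Ctsk: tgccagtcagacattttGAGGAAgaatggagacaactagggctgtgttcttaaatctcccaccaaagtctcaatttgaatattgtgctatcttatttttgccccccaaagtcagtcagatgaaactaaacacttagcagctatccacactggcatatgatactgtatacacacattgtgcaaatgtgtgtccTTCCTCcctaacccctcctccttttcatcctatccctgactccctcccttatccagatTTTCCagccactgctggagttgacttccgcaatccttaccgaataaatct
Oscar: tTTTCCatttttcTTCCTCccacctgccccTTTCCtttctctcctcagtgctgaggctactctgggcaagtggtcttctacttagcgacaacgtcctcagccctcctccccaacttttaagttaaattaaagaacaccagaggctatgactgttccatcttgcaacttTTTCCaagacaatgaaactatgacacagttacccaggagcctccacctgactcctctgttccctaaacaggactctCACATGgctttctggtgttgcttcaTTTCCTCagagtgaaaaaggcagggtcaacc
Capitals mark matches, on either strand, to GGAAA (the core bound by NFAT proteins), to GAGGAA (a form bound by PU.1) and to CATGTG (a form bound by MITF). Matches of the first and second kind share letters where TTTCCTC occurs near the end of the Oscar sequence. Ctsk has 1 match to GGAAA, 2 to GAGGAA and 0 to CATGTG, and Oscar has 4, 2 and 1. These letters are common, with GGAAA found in 61.3%, GAGGAA in 28.3% and CATGTG in 14.2% of the 32851 promoters of this length. RefSeq promoters were matched for 4 of the 7 genes (Acp5, Ctsk, Calcr and Oscar), and for Mmp9, Dcstamp and Ocstamp none was printed.

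The 7 genes spanned a wide range of abundance, and their order was nearly the same in each mouse. Ctsk was the 37th most abundant of all listed features by mean RPKM, at 746 RPKM over the 16 mice, and it was followed by Acp5 at 368 and Mmp9 at 135. Oscar (7.66 RPKM) and Dcstamp (7.14 RPKM) came next and were not told apart at the lengths the files imply, as Oscar was the higher in 8 of 16 mice (exact sign-flip permutation p = 0.243). Ocstamp (0.992 RPKM) and Calcr (0.377 RPKM) were lowest. The other 5 neighbouring pairs in this order kept it in 16 of 16 mice (exact sign-flip permutation p = 3.05e-05 each, the smallest such a test can give). The order was itself taken from the means of these mice, so these p-values describe it and are no independent test. The places of Calcr, Oscar and Dcstamp depend on the gene models. The values imply a length of 11112 bases for Calcr while the exons of GENCODE M21 cover 3912. Per base of these exons Calcr would stand at 1.07 RPKM if all its reads lay within them, which was not tested. That is just above Ocstamp, whose length is 3657 bases in both, and Ocstamp would be the higher in 7 of 16 mice. On the same assumption Oscar and Dcstamp would stand at 9.52 and 7.44 RPKM, with Oscar the higher in 15 of 16 mice, a comparison chosen after seeing the data. Exons of the 7 genes overlap no other gene in that annotation, except that 6.75% of the exon bases of Acp5 also belong to a noncoding transcript of the opposite strand.

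Unloading for 7 days was not accompanied by a change past the test in any of the 7 genes. In the effectors, Ctsk averaged 676 ± 215 RPKM in Control and 815 ± 272 in HLU mice, while Acp5 (378 ± 150 and 358 ± 153) and Mmp9 (136 ± 37.8 and 133 ± 24.1) had nearly equal means (SD, n = 8 per group). The receptor Oscar averaged 8.52 ± 2.74 RPKM in Control and 6.81 ± 2.14 in HLU mice (SD, n = 8 per group), and the fusion genes were close to level. With limma, 0 of the 6 genes that passed the filter on low values reached an adjusted p under 0.1 with a change of at least 1.2-fold, and 0 did so at an unadjusted p under 0.05, also with voom on the recovered reads. Over all 16973 features tested these rules called 0 features (0%) and 996 features (5.87%), 188 of them higher and 808 lower in HLU mice. The unadjusted number ranged from 588 without HLU 7 to 1748 without HLU 2. The median log2 fold change of all features was -0.10. After median-of-ratios rescaling it was -0.01, with 381 features higher and 395 lower.

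**Figure D1:**
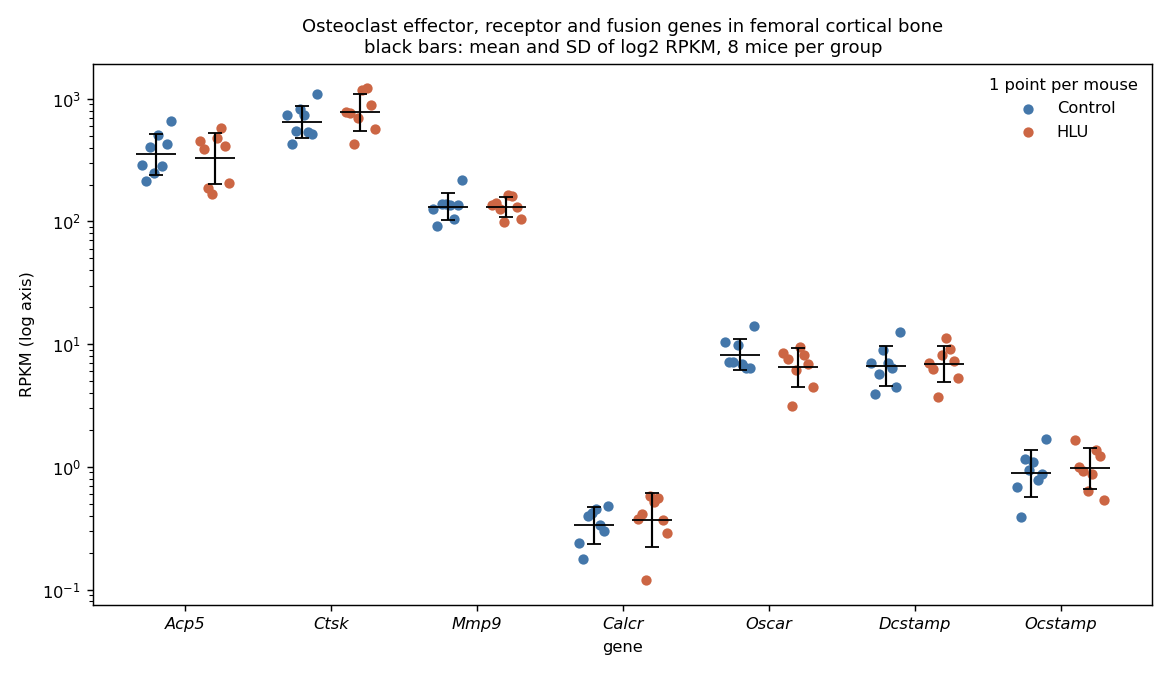
Transcript abundance of the 7 genes in each mouse, in RPKM on a log axis, with 1 point per mouse in blue for Control and in orange for HLU, and black bars for the mean and SD of log2 RPKM (n = 8 per group). The groups overlap in each gene, and Control 8 is the highest Control mouse in 7 of 7 genes.

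Ctsk encodes cathepsin K, the cysteine protease that cuts type I collagen under the resorbing cell. Its abundance was lowest at 425 RPKM, with a median of 637 and a highest value of 1085, in Control mice, and 431, 776 and 1216 RPKM in HLU mice. HLU mice 5 and 6 lay above every Control mouse and the Control median was exceeded in 6 of 8 HLU mice, but the remaining values of both groups were mixed. The log2 fold change on log2(RPKM + 0.1) was 0.26 (95% interval -0.23 to 0.74, limma unadjusted p = 0.282, exact permutation p = 0.290). It was 0.08 without the 2 smallest libraries, a setting chosen after seeing the data, and 0.14 with erythroid and neutrophil marker scores as covariates. After median-of-ratios rescaling it was 0.35, and after quantile normalization 0.39.

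Acp5 encodes tartrate-resistant acid phosphatase, the enzyme stained to count osteoclasts in sections. It varied widely between mice, with an SD of 0.63 on the log2 scale within groups where counting error alone would give 0.02. Control mice ran from 212 through a median of 347 to 653 RPKM and HLU mice from 166 through 402 to 574 RPKM. HLU mice 3, 4 and 8 lay below every Control mouse, yet the Control median was exceeded in 5 of 8 HLU mice. The log2 fold change was -0.12 (95% interval -0.74 to 0.51, limma unadjusted p = 0.697, exact permutation p = 0.711), and it was 0.02 without HLU 4, 0.01 without Control 8 and 0.15 with erythroid and neutrophil marker scores as covariates. It was -0.30 without the 2 smallest libraries and -0.345 with the share of reads on unlisted features as a covariate, a pair of settings chosen after seeing the data.

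Mmp9 encodes gelatinase B, which osteoclasts share with neutrophils. Its values were the tightest of the 7, from 92.1 to 219 RPKM in Control mice and from 98.5 to 165 in HLU mice, with medians of 136 and 133. Control 8 stood apart at the top of its group. The log2 fold change of -0.01 (95% interval -0.35 to 0.33, exact permutation p = 0.938) took the other sign under some settings, 0.08 after median-of-ratios rescaling among them.

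Calcr encodes the receptor through which calcitonin halts resorption, and Oscar an immunoglobulin-like receptor that binds collagen and signals through the Fc receptor gamma chain. Calcr ranged from 0.178 to 0.481 RPKM in Control mice and from 0.119 to 0.583 in HLU mice, with medians of 0.367 and 0.395. Its mean lay below the filter of 0.5 RPKM, and HLU mice gave both its lowest value (HLU 3) and its 3 highest. At this depth counting error alone would give an SD of 0.21 on the log2 scale of the reads, where 0.46 was seen between mice. The 2 SDs do not add, and the 0.1 added to the RPKM shrinks the second. The log2 fold change was 0.12 (95% interval -0.47 to 0.72, exact permutation p = 0.601).

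Oscar had the lowest fold change of the 7. It ran from 6.34 through a median of 7.14 to 14.1 RPKM in Control mice and from 3.16 through 7.22 to 9.56 in HLU mice. HLU mice 3, 4 and 8 lay below every Control mouse, whereas the medians nearly coincided and 4 of 8 HLU mice lay on each side of the Control median. The log2 fold change was -0.34 (95% interval -0.81 to 0.13, limma unadjusted p = 0.149, exact permutation p = 0.179), and without HLU 3 it was -0.195. With erythroid and neutrophil marker scores as covariates it was -0.57 at an unadjusted limma p of 0.0447, a fit in which 2765 of the 16973 features passed the same rule.

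Dcstamp and Ocstamp encode membrane proteins that osteoclast precursors need in order to fuse. Dcstamp ran from 3.92 through a median of 6.70 to 12.6 RPKM in Control mice and from 3.72 through 7.13 to 11.3 in HLU mice, and its log2 fold change was 0.06 (exact permutation p = 0.802). Ocstamp ran from 0.387 through 0.912 to 1.68 RPKM in Control mice and from 0.539 through 0.964 to 1.66 in HLU mice, and its log2 fold change was 0.12 (exact permutation p = 0.653). In both genes the groups overlapped over nearly their whole ranges, and Control 8 was the highest of the 16 mice. The 95% intervals were -0.44 to 0.57 for Dcstamp and -0.44 to 0.68 for Ocstamp.

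The 7 genes shared much of the variation between mice of the same group. After each group's mean was removed, 7 of 7 genes lay above it in Control 8 and HLU 6, and 0 of 7 did in Control 2, Control 6, HLU 3 and HLU 8. Each of the 21 pairs of genes correlated positively over the 16 mice, with Pearson r from 0.44 to 0.94 and a median of 0.655, and each was positive within the Control mice and within the HLU mice as well. By permutation of the mice within groups, 17 of 21 pairs had an adjusted p under 0.05 for Pearson r and 14 of 21 for Spearman rho, with Benjamini-Hochberg adjustment over the 21 pairs. These values were computed on log2(RPKM + 0.1). The number rests in part on 1 mouse, since 10 of 21 pairs passed without Control 8. For comparison, the median r of each gene with all tested features lay between -0.01 and 0.10. A pair can also be set against the share of features that follow its first gene at least as closely. Among the 17 pairs this share ran from 0.0118% for Ctsk with Dcstamp to 18.0% for Acp5 with Calcr and with Dcstamp. It was 12.6% for Acp5 with Oscar and 5.13% for Acp5 with Ctsk, so that many features followed Acp5 as closely as these genes did. The share depends on which gene is taken first, which was set by list order. An r of at least 0.7 was reached by 5.61% of features with Acp5, 1.10% with Ctsk and 0.713% with Oscar.

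**Figure D2:**
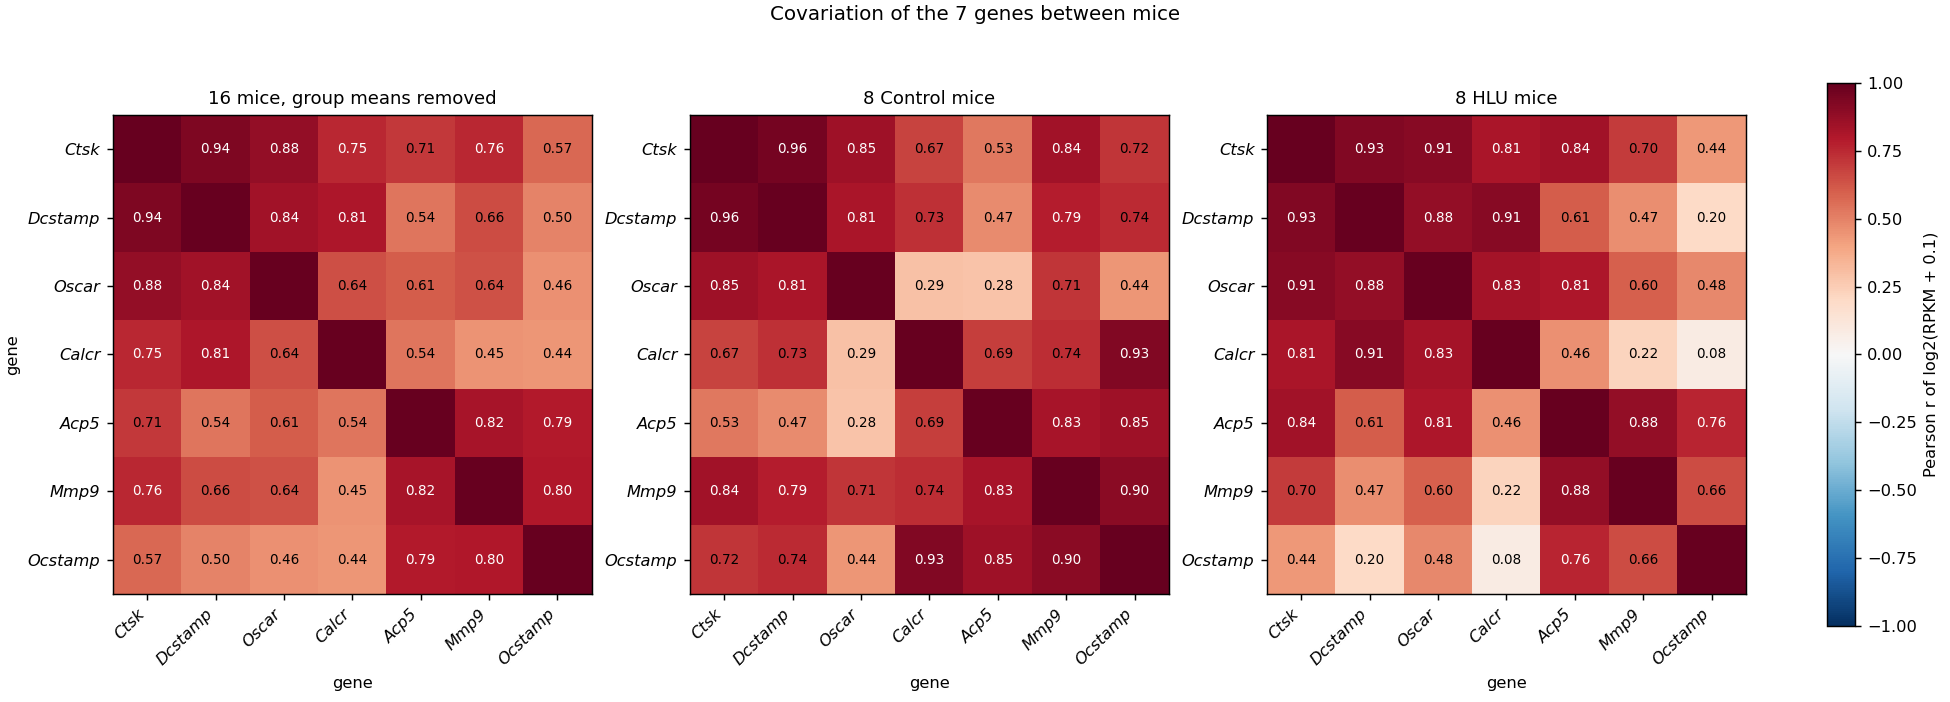
Pearson r between each pair of the 7 genes, in log2(RPKM + 0.1), over all 16 mice after removal of group means (left), the 8 Control mice (middle) and the 8 HLU mice (right), with colour from blue (-1) to red (1). Over 16 mice the highest cell is Ctsk with Dcstamp, and the lowest cell of the 3 panels is Calcr with Ocstamp in HLU mice at 0.08.

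The closest pair joined the collagen protease with a fusion gene. Ctsk and Dcstamp correlated at r = 0.94 (permutation p = 1e-05, the smallest the permutations can give, adjusted p = 0.00014) and rho = 0.89 (permutation p = 4e-05, adjusted p = 0.00084), and r was 0.88 without the 2 mice farthest from the median of Ctsk. Only 2 of all other features tested, Slc9b2 and Slc37a2, followed Ctsk as closely as Dcstamp did. Ctsk and Oscar followed with r = 0.88 (permutation p = 2e-05, adjusted p = 0.00014), rho = 0.81 (permutation p = 0.00066, adjusted p = 0.00462) and r = 0.77 without the 2 farthest mice. Calcr, although thinly covered, correlated with Dcstamp at r = 0.81 (permutation p = 9e-05, adjusted p = 0.000378) and rho = 0.81 (permutation p = 0.00056, adjusted p = 0.00462), with r = 0.66 without the 2 farthest mice.

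Among Acp5, Mmp9 and Ocstamp the values were alike. Acp5 and Mmp9 correlated at r = 0.82 (permutation p = 2e-05, adjusted p = 0.00014) and rho = 0.73 (permutation p = 0.00349, adjusted p = 0.0147), and r was 0.85 without the 2 mice farthest from the median of Acp5. Acp5 and Ocstamp correlated at r = 0.79 (permutation p = 0.00028, adjusted p = 0.00098) and rho = 0.68 (permutation p = 0.00797, adjusted p = 0.0209), with r = 0.83 without the 2 farthest mice. The fusion genes themselves, Dcstamp and Ocstamp, were less close, at r = 0.50 (permutation p = 0.061, adjusted p = 0.0712) and rho = 0.37 (permutation p = 0.181, adjusted p = 0.181), and r was 0.39 without the 2 farthest mice.

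The pairs that missed the threshold were Mmp9 with Calcr (r = 0.45), Calcr with Ocstamp (r = 0.44), Oscar with Ocstamp (r = 0.46) and Dcstamp with Ocstamp (r = 0.50). Calcr and Ocstamp gave r = 0.93 in the 8 Control mice and 0.08 in the 8 HLU mice, and Dcstamp and Ocstamp 0.74 and 0.20. These pairs were picked after all 21 had been seen, both involve genes with few reads, and whether the groups differ in r was not tested.

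Of the 7 genes, Acp5, Mmp9 and Ocstamp moved with markers of some of the cells around them, and for the other 4 no such relation passed the test. Marker scores are the mean log2 value of a list of genes for each cell type, and 56 relations of the 7 genes with 8 such scores were computed within groups. Of these relations, 5 had an adjusted p under 0.05, and 9 did after median-of-ratios rescaling. Ocstamp correlated with the osteoblast score at r = 0.80 (permutation p = 0.00028, adjusted p = 0.0157) and rho = 0.81 (permutation p = 0.00059, adjusted p = 0.033), and r was 0.69 without the 2 mice farthest from the median score. Acp5 correlated with the endothelial score at r = 0.80 (permutation p = 0.00112, adjusted p = 0.0312) and rho = 0.76 (permutation p = 0.00187, adjusted p = 0.0349), with r = 0.83 without the 2 farthest mice.

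The other 3 relations were Acp5 with the adipocyte score (r = 0.74), Mmp9 with the osteoblast score (r = 0.715) and Acp5 with the osteoblast score (r = 0.70). Their adjusted permutation p values were 0.0312, 0.0326 and 0.0423, their rho values 0.70, 0.76 and 0.71 (adjusted permutation p = 0.0584, 0.0349 and 0.0566, so that only Mmp9 passed by rank), and r without the 2 farthest mice was 0.68, 0.72 and 0.62. The osteoblast score was positively correlated with 7 of 7 genes, at r from 0.53 to 0.80, and so were the osteocyte, adipocyte and endothelial scores, at r from 0.32, 0.43 and 0.35 upward. With the macrophage and neutrophil scores 6 of 7 and 7 of 7 relations were negative, none of them with an adjusted p under 0.05. Mmp9, which neutrophils also make, had r = -0.14 with the neutrophil score.

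**Figure D3:**
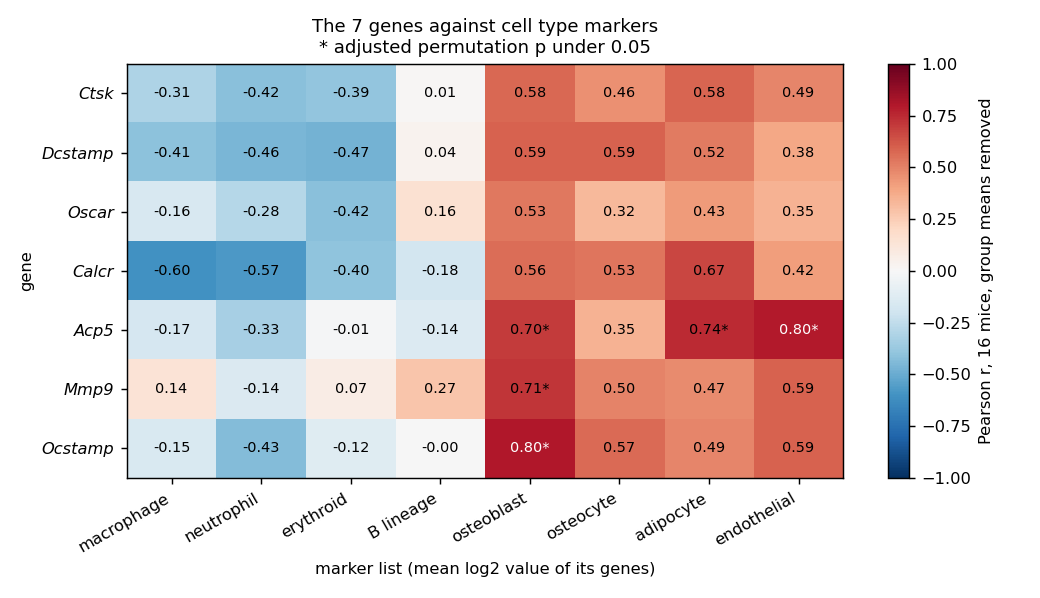
Pearson r of each of the 7 genes (vertical axis) with the mean log2 value of 8 cell type marker lists (horizontal axis) over 16 mice after removal of group means, with colour from blue (-1) to red (1). Stars mark the 5 relations with an adjusted permutation p under 0.05, in the osteoblast, adipocyte and endothelial columns, and the neutrophil column is negative throughout.

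When the osteoblast and endothelial scores were removed by partial correlation, a setting chosen after these relations were seen, 6 of 21 pairs passed. They were Ctsk with Dcstamp (r = 0.92), Oscar (r = 0.845) and Calcr (r = 0.637), Dcstamp with Oscar (r = 0.77) and Calcr (r = 0.72), and Acp5 with Mmp9 (r = 0.68). The median r over the 21 pairs was then 0.516 and the lowest -0.02. With the erythroid and neutrophil scores removed instead, 17 of 21 pairs passed, with a median r of 0.785. Which part the numbers of other cells have in the shared variation was not tested.

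Genes of marrow cells were abundant in the RNA although the marrow had been flushed, and of the 4 lists of such cells only the erythroid one differed between the groups at an unadjusted p under 0.05. The summed abundance of 13 of 14 erythroid genes that are listed, led by Hbb-b2 (1120 RPKM), ran from 3380 through a median of 4090 to 9160 RPKM in Control and from 1850 through 2860 to 4890 in HLU mice (exact permutation p = 0.0354). The 10 of 14 neutrophil genes listed, led by S100a8, summed to medians of 31100 and 25900 RPKM (exact permutation p = 0.564), the 14 macrophage genes, led by Mpeg1, to 343 and 297 RPKM (exact permutation p = 0.251) and the 11 of 12 B lineage genes, led by Cd79b, to 103 and 81 RPKM (exact permutation p = 0.179). The 8 adipocyte genes, led by Fabp4, had medians of 574 and 733 RPKM (exact permutation p = 0.0477), the 10 osteocyte genes 345 and 555 RPKM (exact permutation p = 0.106), the 12 osteoblast genes 2760 and 2560 RPKM (exact permutation p = 0.808) and the 8 endothelial genes, led by Pecam1, 82.3 and 86.3 RPKM (exact permutation p = 0.409). The adipocyte sum is mostly Fabp4 (527 RPKM). Adipoq and Cfd, next in abundance, had log2 fold changes of 0.015 and 0.585 (limma unadjusted p = 0.942 and 0.272). Of 12 muscle genes only Myh7 is listed by its symbol, at medians of 7.09 and 6.23 RPKM. No listed marker was at 0 in all mice.

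Among the 86 tested markers 7 were called without adjustment, 2 higher and 5 lower, where 5.87% of all features were. The lower ones were 4 of 13 erythroid genes at an unadjusted limma p under 0.05, namely Hbb-b1 (-0.77), Hbb-b2 (-0.70), Klf1 (-0.69) and Rhag (-0.60), given as log2 fold changes, together with the pre-B gene Vpreb3 (-0.81). Mepe, a matrix protein gene of osteocytes, was higher by 0.79 and Fabp4, a fatty acid carrier of adipocytes, by 0.34 on the log2 scale by the same rule. The adjusted limma p was 0.744 for each of these 7 genes, and all but Hbb-b1 and Vpreb3 lost the unadjusted p under 0.05 when some single mouse was left out.

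None of 21 relations with the reads of the library, the share of reads outside the listed features and the number of features above 0.5 RPKM had an adjusted p under 0.05 for Pearson r. The nearest was Acp5 with the number of features above 0.5 RPKM, at r = 0.65 (permutation p = 0.00245, adjusted p = 0.0514) and rho = 0.77 (permutation p = 0.00147, adjusted p = 0.0309), and r was 0.68 without the 2 farthest mice. Ocstamp, Mmp9 and Calcr followed with the same measure, at r = 0.62, 0.60 and 0.565 (adjusted permutation p = 0.0775, 0.123 and 0.0712) and rho = 0.49, 0.61 and 0.46 (adjusted permutation p = 0.215, 0.213 and 0.224), and r was 0.30, 0.52 and 0.31 without the 2 farthest mice.

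Although Ctsk and Oscar rose and fell together within each group, their ratio differed between the groups. The RPKM of Ctsk was from 59.9 to 107 times that of Oscar in Control mice (median 79.2), and in HLU mice it was from 92 to 148 times (median 124). HLU mice lay above the Control median in 8 of 8 cases and above every Control mouse in 6 of 8, and Control 5 alone among Control mice reached into the HLU range. The mean ratio was 80.1 ± 13.5 in Control and 121 ± 18.3 in HLU mice (SD, n = 8 per group), a log2 difference of 0.60 (SE 0.12, exact permutation p = 0.000466).

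This ratio was chosen after all 21 ratios between the 7 genes had been computed, and any scaling of a library cancels in it. The ratios next in p, not adjusted for the 21 and given as a description, were Oscar to Dcstamp (log2 difference -0.40, exact permutation p = 0.0127), Calcr to Oscar (0.46, exact permutation p = 0.0337) and Ctsk to Dcstamp (0.19, exact permutation p = 0.0485). Set against all other features, the difference is less exceptional. When each of 16972 features was expressed relative to Ctsk and tested with limma, Oscar had a log2 difference of -0.60 (unadjusted p = 0.00639, adjusted p = 0.518) and ranked 61st, and 856 features (5.04%) passed an unadjusted p under 0.05 with 1.2-fold, 23 higher and 833 lower, with 0 past the adjusted threshold. The median feature was lower by this measure too, with a log2 difference of -0.36. By the exact permutation test 3 of the 16972 features, Oscar, Gm12577 and Gm4027, had a p as low as that of Oscar (the latter pair named after their values were seen), and the adjusted p of Oscar over all features was 0.512.

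**Figure D4:**
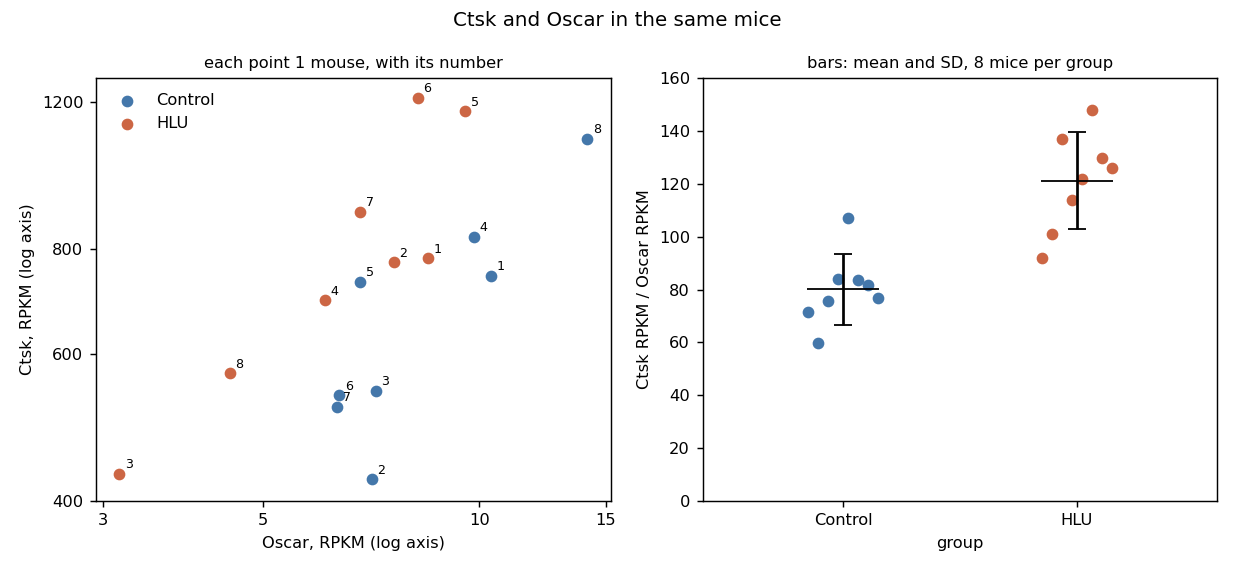
Left, RPKM of Ctsk against RPKM of Oscar on log axes, 1 point per mouse with its number, blue for Control and orange for HLU. Right, the ratio of Ctsk to Oscar in each mouse with the mean and SD (n = 8 per group). At a given Oscar value most HLU points lie above the Control points, at ratios from 92 to 148 against 59.9 to 107.

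Within groups the ratio was not closely related to any marker score or library measure. Of 11 such relations none had an adjusted permutation p under 0.05, and the highest was with the number of features above 0.5 RPKM, at r = 0.59 (permutation p = 0.0142, adjusted p = 0.157) and rho = 0.44 (permutation p = 0.104, adjusted p = 0.579), with r = 0.33 without the 2 farthest mice. For the erythroid score, whose genes were lower in HLU mice, r was 0.06 (permutation p = 0.838, adjusted p = 0.838) and rho was 0 (permutation p = 1, adjusted p = 1), and r was 0.22 without the 2 farthest mice.

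Other genes of the osteoclast were called about as often as genes in general. Of 58 tested genes in 6 lists of receptors, transcription factors, acid secretion, fusion, further effectors and ligands, 0 were higher and 3 lower in HLU mice at an unadjusted p under 0.05 with 1.2-fold, where 996 of all 16973 features (5.87%) were called, and 0 passed the adjusted threshold. The log2 fold change was above 0 in 17 and below 0 in 41 of the 58 genes, in acid secretion in 0 and 10, and above 0 in 32.1% of all features. Its median over the 58 genes was -0.09, close to the -0.10 of all features. The 3 called genes are described next, and each was called without adjustment only. Among 16 receptors and adaptors, 2 were lower and 0 higher. Itgb3, the integrin beta 3 chain by which osteoclasts and platelets attach, was 98.9 ± 14.5 RPKM in Control and 73.8 ± 21.9 in HLU mice (SD, n = 8 per group), a log2 fold change equal to -0.46 (exact permutation p = 0.0171, limma adjusted p = 0.744). Tec, a kinase downstream of the costimulatory receptors, had a log2 fold change equal to -0.29 (exact permutation p = 0.0236, limma adjusted p = 0.744).

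**Figure D5:**
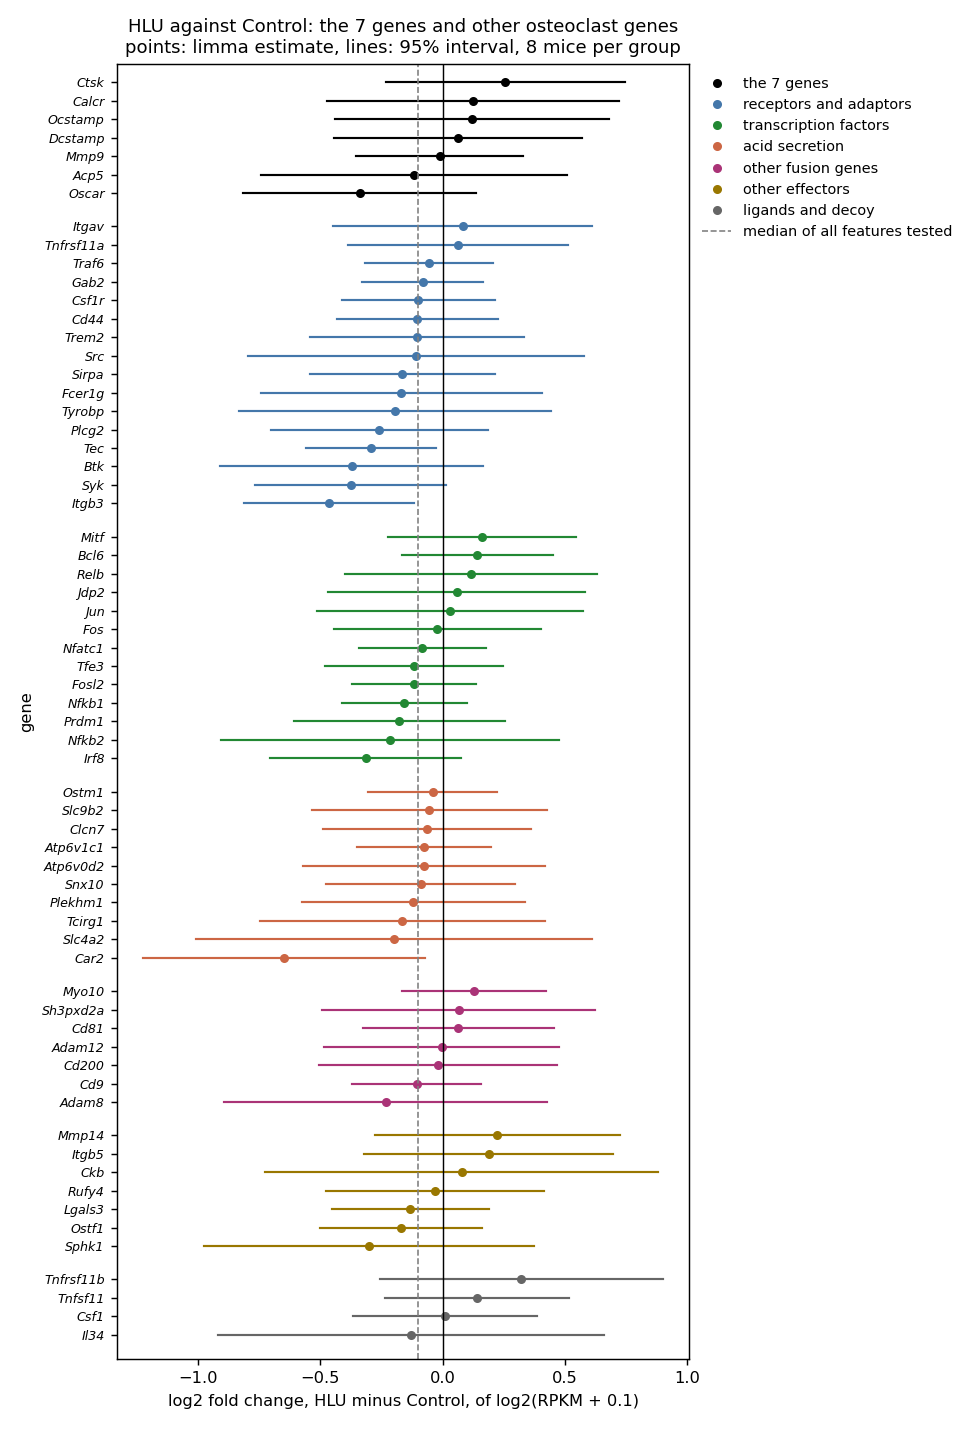
Log2 fold change (HLU minus Control, in log2(RPKM + 0.1)) of the 7 genes, in black, and of other osteoclast genes coloured by list, with the limma estimate as a point and its 95% interval as a line (n = 8 per group). Zero is the solid line and the median of all features tested the dashed one, and the intervals of Itgb3, Tec and Car2 alone lie wholly below 0.

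Among 10 genes of acid secretion 1 was lower. Car2, the carbonic anhydrase that supplies protons to the osteoclast and also fills red cells, was 982 ± 296 RPKM in Control and 666 ± 309 in HLU mice (SD, n = 8 per group), and its log2 fold change was -0.65 (exact permutation p = 0.0418, limma adjusted p = 0.744). Within groups it followed the erythroid score at r = 0.955 (permutation p = 1e-05, the smallest possible, adjusted p = 6e-05) and rho = 0.89 (permutation p = 5e-05, adjusted p = 0.0003), with r = 0.95 without the 2 farthest mice, and the neutrophil score at r = 0.87 (permutation p = 0.00015, adjusted p = 0.00045) and rho = 0.77 (permutation p = 0.00137, adjusted p = 0.00411), with r = 0.80 without them, among 6 relations of Itgb3, Tec and Car2 with the erythroid and neutrophil scores. With both scores as covariates its log2 fold change was -0.20 (limma unadjusted p = 0.0622). Its correlation with Ctsk was -0.45, given as a description.

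Itgb3 and Tec also followed the marrow scores. Itgb3 correlated with the neutrophil score at r = 0.72 (permutation p = 0.0116, adjusted p = 0.0139) and rho = 0.62 (permutation p = 0.0178, adjusted p = 0.0229), with r = 0.54 without the 2 farthest mice. For Tec the same relation gave r = 0.81 (permutation p = 0.00034, adjusted p = 0.00068) and rho = 0.73 (permutation p = 0.00368, adjusted p = 0.00736), with r = 0.64 without them. With both scores as covariates the log2 fold change was -0.32 for Itgb3 (limma unadjusted p = 0.0387) and -0.225 for Tec (limma unadjusted p = 0.0388, a change below 1.2-fold), in the fit in which 2765 of 16973 features passed the unadjusted rule. What marrow contributes to these 3 differences was not tested beyond these fits.

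In the remaining lists no gene passed the test. The 14 tested transcription factors had a median log2 fold change of -0.05, with Fosl2 (15 RPKM), Jdp2 (14.5) and Nfkb1 (8.9) among the most abundant by mean RPKM. The 8 further fusion genes had a median of -0.01, led by Cd9 (107 RPKM), Cd81 (45.3), the proton pump subunit Atp6v0d2 (44.5) and Cd200 (17.9). The 7 further effectors had a median of -0.03, led by the membrane collagenase Mmp14 (44.5 RPKM), Lgals3 (27.1), Ostf1 (18.9) and Itgb5 (15.4).

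The ligands that drive osteoclast formation were measured in the same RNA. Csf1, which encodes M-CSF, averaged 11.1 ± 2.86 RPKM in Control and 11.1 ± 2.38 in HLU mice, and Tnfsf11, which encodes RANKL, 3.45 ± 0.985 and 3.79 ± 0.885 (SD, n = 8 per group). The decoy receptor gene Tnfrsf11b averaged 5.36 ± 2.27 and 6.43 ± 1.95 RPKM (SD, n = 8 per group), a log2 fold change equal to 0.32 (exact permutation p = 0.288). Il34, a further ligand of the M-CSF receptor, had a log2 fold change equal to -0.13 (exact permutation p = 0.749), and Calca and Calcb had at most 3 reads in any mouse.

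Some osteoclast genes of these lists shared the variation of Ctsk between mice and others did not. Of the 58 tested genes, 8 had r of at least 0.7 with Ctsk, where 186 of 16972 features (1.10%) did. They were the sodium and proton exchanger gene Slc9b2 (r = 0.96), Prdm1 (0.80), the RANK gene Tnfrsf11a (0.79), Itgav (0.785), Adam12 (0.78), Atp6v0d2 (0.78), Snx10 (0.72) and Fosl2 (0.70), named after their values were seen. The median r with Ctsk was 0.55 in the fusion list, 0.45 among the further effectors and 0.34 among the ligands. It was 0.32 in acid secretion and 0.28 among the transcription factors. Among receptors and adaptors, a list in which several genes are also active in other myeloid cells, it was -0.105. These r values carry no test.

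Among the features whose pattern was most like the mean of the 7 genes were Slc37a2 (r = 0.94), a sugar phosphate transporter gene, Slc9b2 (0.905), Kif3a (0.89), the adenylyl cyclase gene Adcy3 (0.87), the lysosomal membrane protein gene Gpr137b (0.86), Adamts15 (0.86), Decr2 (0.855), Bdh2 (0.85) and Cd109 (0.85), over 16 mice with group means removed. For the single genes the closest were Slc9b2, Slc37a2 and Gpr137b for Ctsk (r = 0.962, 0.94 and 0.925), Fam198b, Cd109 and Insig1 for Dcstamp (0.95, 0.94 and 0.94) and Steap4, Slc9b2 and Gpr137b for Oscar (0.908, 0.908 and 0.905). They were Adcy3, Fkbp11 and Mst1r for Acp5 (r = 0.93, 0.92 and 0.92), among others Adcy3 and Rgag4 for Mmp9 (0.89 and 0.88), Bbs1, Mmp14 and Pomt2 for Ocstamp (0.903, 0.902 and 0.885) and Mettl21a, Cdc14b and Mtmr10 for Calcr (0.865, 0.86 and 0.859). Slc9b2 and Gpr137b were thus near the top for both Ctsk and Oscar, and Adcy3 for both Acp5 and Mmp9, while Ocstamp and Dcstamp shared no gene among these.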

How the data were processed

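The 16 libraries came from separate mice, 8 Control and 8 HLU. The submitters' processing notes name TopHat2, build mm9 and DESeq2. Libraries were TruSeq v2 and 8 shared a lane, but which lane held which mouse, the annotation and the counter are not given in the sources used here, so a difference between lanes could be part of any difference between the groups. The deposited values, 1 file per mouse, are taken as RPKM made by the authors; the unit was known from earlier work on these files and was checked by recovering whole reads for 16973 of 16973 tested features (tolerance 0.05 reads). A count of 3 reads corresponds to 0.0126 to 0.0382 RPKM for Calcr and 0.0384 to 0.116 for Ocstamp, for counting error only, and reads are not independent molecules.

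Tests were made with limma 3.58.1 (R 4.3.3) with variance trend, equal weights and Benjamini-Hochberg adjustment, on log2(RPKM + 0.1) of features whose mean reached 0.5 RPKM; the added 0.1 shrinks changes of low genes. Calcr, below that filter, was fitted beside them. Single values were compared by two-sided exact permutation over the 12870 divisions of the mice into 8 and 8. Correlations used values centred on group means and 100000 two-sided permutations within groups. Python 3.11.15, numpy 2.4.6, scipy 1.17.1, pandas 2.3.3 and matplotlib 3.10.9 served for these and for the figures. The recovery of reads, limma and the permutation tests were tried on simulated data. The genes and lists were chosen with earlier results of these data known. Of the list genes, those with an unadjusted limma p under 0.05 or, failing that, up to 4 of the highest in mean RPKM were named, with up to 10 features most like the mean of the 7 genes and up to 3 most like each.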

Additional observations from a re-analysis of the deposited data

Results flagged for a closer look

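In 22 groups of 8 values (the 7 genes, the ratio of Ctsk to Oscar and 3 measures of the libraries, each in Control and in HLU mice), the highest or lowest value was compared with its nearest neighbour relative to the range of the group, by Dixon's test, which chance exceeds in about 1 in 20 groups. It was exceeded in 2 groups. Control 8 had 219 RPKM of Mmp9, above the other Control mice, and the same mouse was the highest Control in the other 6 genes. HLU 5 had the smallest library of its group, at 7840000 reads, and its part in the values of HLU mice was tested by leaving it out.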

How the results depend on the processing

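The fold changes and the counts over all features were recomputed under 11 other settings, under 2 more chosen after seeing the data (without the 2 smallest libraries, and with a covariate for the share of reads that the listed features do not hold) and without each mouse. The pairs, the ratio, the marker relations and the count of list genes were recomputed under 6, 4, 2 and 3 settings, the first and second of these also without each mouse, and the library relations under none. Of 203 values for the 7 genes, 183 kept direction and side of the threshold. Of the others, 19 changed sign and 1 passed the threshold. They are given here as log2 fold changes, those without single mice only as ranges, and the cause was not tested. With erythroid and neutrophil scores as covariates the other sign was seen for Acp5 (0.147), Mmp9 (0.095) and Dcstamp (-0.118), and Oscar at -0.569 passed an unadjusted p under 0.05. Mmp9 was 0.081 after median-of-ratios rescaling and 0.158 after quantile normalization. Without the 2 smallest libraries Calcr was -0.023, Dcstamp -0.141 and Ocstamp -0.005, and with the share covariate Calcr was -0.004 and Ocstamp -0.077. Leaving out each mouse gave ranges of -0.234 to 0.021 for Acp5, 0.164 to 0.377 for Ctsk, -0.087 to 0.092 for Mmp9, 0.030 to 0.284 for Calcr, -0.419 to -0.195 for Oscar, -0.041 to 0.196 for Dcstamp and -0.026 to 0.241 for Ocstamp. Some values that kept their sign grew, with Ctsk at 0.393 and Calcr at 0.236 after quantile normalization. Ocstamp was 0.286 with erythroid and neutrophil scores as covariates. The other genes named with an unadjusted p under 0.05 often lost it. Of 29 recomputed values each, it was lost in 1 for Itgb3, 10 for Tec, 8 for Car2, 1 for Hbb-b1, 12 for Hbb-b2, 11 for Klf1, 17 for Rhag, 2 for Vpreb3, 4 for Mepe and 13 for Fabp4, with the direction kept but for Hbb-b2 (0.066) with the marrow scores as covariates, which contain it.

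Over all features the count past the adjusted threshold moved from 0 to 1 with no filter, to 1 with no variance trend, to 18 with the marrow scores as covariates and to 1 with the share covariate, and it ranged from 0 to 1 when each mouse was left out. A replicate block, pairing mice of the same number, left it at 0, with 1039 unadjusted calls, although only 1 of 8 Control mice was best matched by the HLU mouse of its number. Of the 21 pairs of genes, 17 passed, 6 with osteoblast and endothelial scores removed, an alternative chosen after seeing the data, and from 10 (without Control 8) to 20 (without HLU 4) when each mouse was left out. Relations with marker scores past the threshold rose from 5 to 9 after median-of-ratios rescaling. The log2 difference of the ratio of Ctsk to Oscar ranged from 0.54 to 0.66 without each mouse. Depth limits Calcr and Ocstamp most, with 14 and 10 reads in the lowest mouse.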
